A study of Mus musculus with 18 samples.

Results

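The nonclassical MHC class I genes followed here are the 6 genes H2-T22, H2-T23, H2-Q4, H2-Q6, H2-Q7 and H2-M3, taken by name from the 50686 genes that were counted. They were measured by RNA-seq in E0771, a mammary tumor line from C57BL/6 mice that is used as a model of triple-negative breast cancer (TNBC). All cells expressed a luciferase and carried a retroviral hairpin together with mCherry, by which they were sorted. The hairpin targeted Renilla luciferase (cntrl) or Cdk8 (shCdk8-1 and shCdk8-2), and before harvest the lines spent 48 h in medium with DMSO or with 1 µM Senexin B (SnxB), an inhibitor of the kinases CDK8 and CDK19. Each of the 6 groups had 3 libraries, which makes 18 in all, and each hairpin was present as 1 sorted line.

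Classical class I molecules such as H2-K and H2-D show peptides from inside the cell to CD8+ T cells and hold natural killer (NK) cells in check. The nonclassical genes lie in the same complex on chromosome 17 and encode related heavy chains that vary little between individuals and have narrower tasks. H2-M3 presents peptides that begin with formylmethionine. H2-T23 encodes Qa-1, which shows a peptide from the leader of classical class I chains to the receptor pair CD94/NKG2A on NK cells. H2-T22 is a ligand of γδ T cell receptors, H2-Q7 and H2-Q6 belong to the genes of Qa-2, and H2-Q4 encodes Qb-1. Most class I heavy chains need the light chain β2-microglobulin, and NLRC5 together with the RFX proteins, NF-κB and interferon regulatory factors acts on class I promoters.

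Only H2-M3 and H2-T22 were above a few counts in these cells. Against cntrl cells in DMSO, H2-M3 mRNA fell by 63.0% in the shCdk8-1 line and fell by 56.9% in the other. H2-T22 mRNA fell by 31.9% and fell by 34.0%, respectively. SnxB for 48 h moved neither gene past the test. H2-T23, H2-Q4, H2-Q6 and H2-Q7 had at most 5 counts in any library.

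The bases before the starts of 3 members are shown because 2 of these genes were measured above a few counts and the third was not, while the same promoter letters were found in each. The 250 bases come from RefSeq on GRCm38.p6 and are written 5′ to 3′ on the strand of the gene. Capitals mark matches, on either strand, to the interferon regulatory factor core AANNGAAA, to the NF-κB motif, to TGATGAC (letters of the X2 element of class I promoters) and to CCAAT. In H2-M3 the NF-κB match and 1 CCAAT match share 2 bases.
H2-M3, chr17:37269984-37270233, plus strand: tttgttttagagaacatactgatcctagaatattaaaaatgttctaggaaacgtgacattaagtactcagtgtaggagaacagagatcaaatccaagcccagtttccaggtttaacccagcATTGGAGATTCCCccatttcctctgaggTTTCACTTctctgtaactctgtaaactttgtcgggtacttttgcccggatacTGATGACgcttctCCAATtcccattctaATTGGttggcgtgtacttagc
H2-T22, chr17:36042743-36042992, minus strand: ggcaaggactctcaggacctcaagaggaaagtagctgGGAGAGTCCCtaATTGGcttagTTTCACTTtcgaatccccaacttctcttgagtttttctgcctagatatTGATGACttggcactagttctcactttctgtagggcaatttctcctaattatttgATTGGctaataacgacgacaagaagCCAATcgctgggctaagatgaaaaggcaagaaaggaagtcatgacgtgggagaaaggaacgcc
H2-Q7, chr17:35438905-35439154, plus strand: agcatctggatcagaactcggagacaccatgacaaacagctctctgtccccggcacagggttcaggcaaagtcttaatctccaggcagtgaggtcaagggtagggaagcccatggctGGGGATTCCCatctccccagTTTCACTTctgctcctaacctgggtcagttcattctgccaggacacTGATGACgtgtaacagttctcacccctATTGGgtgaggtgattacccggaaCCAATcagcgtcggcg

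The interferon core appeared as TTTCACTT on the strand of the gene in each of these 3 windows, at bases 101 to 94 before the start of H2-M3, 191 to 184 before that of H2-T22 and 113 to 106 before that of H2-Q7. TGATGAC lay nearer to the start, at 49 to 43, 143 to 137 and 67 to 61 bases, respectively. All 6 members had an entry. H2-Q4 and H2-Q6 also held a match to each of the 4 motifs. The window of H2-T23 held the interferon core and CCAAT, and these letters of the NF-κB motif and of X2 were not in it. GENCODE M21 starts H2-T23 earlier than RefSeq, so that 154 of the 250 bases lie in an exon there. Over all 32851 RefSeq windows of this length, 21.3% held the interferon core, 3.90% the NF-κB motif, 2.69% TGATGAC and 33.8% CCAAT. A match describes letters and not a bound site.

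Total counts ranged from 16452260 to 22664693 per library (median 19029320). Levels are given as CPM, a gene's counts per 1e6 counts of the TMM-scaled library, and 3 counts in a library equal 0.132 to 0.182 CPM of its unscaled total. Cdk8 served as the check of the labels. In DMSO the cntrl cells held 56.1 ± 2.13 CPM (SD, n = 3) of it. With shCdk8-1 it was 21.4 ± 2.44 CPM (SD, n = 3), and with shCdk8-2 38.9 ± 0.376 CPM (SD, n = 3). The mesenchymal markers Vim and Zeb1 were abundant, while Fn1 and Cdh2, the others listed, had at most 3 counts in every library. Of 8 epithelial markers, 4 had at most 3 counts in every library, and the summed level of the list was 0.219 to 0.490 CPM over the cntrl libraries, 7.74 to 9.18 CPM over the shCdk8-1 libraries and 12.2 to 14.6 CPM over the shCdk8-2 libraries. Krt8 made up most of the sum in the shCdk8 libraries and had at most 1 count in each cntrl library. Epcam was at most 8 counts. Of the receptors that are low in TNBC, Pgr had 0 counts in all 18 libraries, while Erbb2 averaged 51.0 CPM over them. Esr1 was 23.1 ± 1.42 CPM (SD, n = 3) in cntrl cells in DMSO. With shCdk8-1 it was 1.25 ± 0.261 CPM (SD, n = 3), and with shCdk8-2 0.951 ± 0.266 CPM (SD, n = 3). Of 12 leukocyte markers, 8 had at most 3 counts in every library, with Ncr1 and Siglech at 0. Their summed level was 3.13 to 3.76 CPM over the cntrl libraries and 1.08 to 3.73 CPM over the shCdk8 libraries, most of it Cd68. The 3 endothelial markers summed to 2.72 to 5.61 CPM over the cntrl libraries and 6.41 to 17.9 CPM over the shCdk8 libraries, with Pecam1 higher and Cdh5 lower after knockdown. The part of these marker levels in the results on H2-M3 and H2-T22 was not tested. In bulk RNA, fewer cells with a transcript and less of it per cell cannot be told apart.

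H2-M3 (ENSMUSG00000016206.6) is at 37270220 to 37274484 of chromosome 17 (GRCm38, plus strand), and is the member farthest from H2-K1. Its counts in the cntrl libraries in DMSO were 407, 469 and 507, or 25.1, 25.4 and 24.8 CPM. In shCdk8-1 cells in DMSO they were 199, 146 and 197, or 9.35, 8.32 and 10.2 CPM. Those of shCdk8-2 cells in DMSO were 243, 209 and 208, or 10.6, 10.7 and 11.4 CPM. Each shCdk8 library lay far below each cntrl library. The lines with different hairpins lay close to each other, with each shCdk8-2 library above each shCdk8-1 library, a difference tested below.

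The log2 fold change of H2-M3 against cntrl cells in DMSO was -1.43 with shCdk8-1 (standard error 0.0728, adjusted p = 7.88e-11 in edgeR). With shCdk8-2 it was -1.21 (standard error 0.0707, adjusted p = 6e-10 by the same test). Tests are edgeR's quasi-likelihood tests. A gene passed the test where its adjusted p was under 0.05, and it was called lower where, in addition, the fold exceeded 2. Both comparisons use the same cntrl libraries. The line with shCdk8-2 had 0.22 more H2-M3 on the log2 scale than that with shCdk8-1 (standard error 0.0799, 95% interval 0.06 to 0.38), which missed the test with an adjusted p of 0.0616. Without replicate 3 of shCdk8-1 in DMSO, this difference was 0.29 and passed (adjusted p = 0.0279 in edgeR).

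H2-T22 (ENSMUSG00000056116.18) lies on the minus strand from 36037128 to 36042747, next to H2-T23. Its counts in the cntrl libraries in DMSO were 601, 689 and 786, or 37.0, 37.4 and 38.5 CPM. In shCdk8-1 cells they were 562, 446 and 486, or 26.4, 25.4 and 25.1 CPM. In shCdk8-2 cells they were 608, 444 and 467, or 26.5, 22.7 and 25.6 CPM. In CPM every shCdk8 library lay below every cntrl library, and the shCdk8 groups overlapped each other. In raw counts 1 shCdk8-2 library, at 608, exceeded the lowest cntrl library, at 601.

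The log2 fold change of H2-T22 against cntrl cells in DMSO was -0.56 with shCdk8-1 (standard error 0.0608, adjusted p = 8.44e-07 in edgeR) and -0.60 with shCdk8-2 (standard error 0.0608, adjusted p = 4.15e-07). The gene thus passed the test with either hairpin and stayed under the 2-fold threshold. Between the shCdk8 lines the difference was -0.05 on the log2 scale (95% interval -0.17 to 0.08, adjusted p = 0.665 by the same test). Cdk8 mRNA itself was 0.85 higher on the log2 scale in shCdk8-2 than in shCdk8-1 cells (standard error 0.0666), a wider gap than that of either member.

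**Figure D1:**
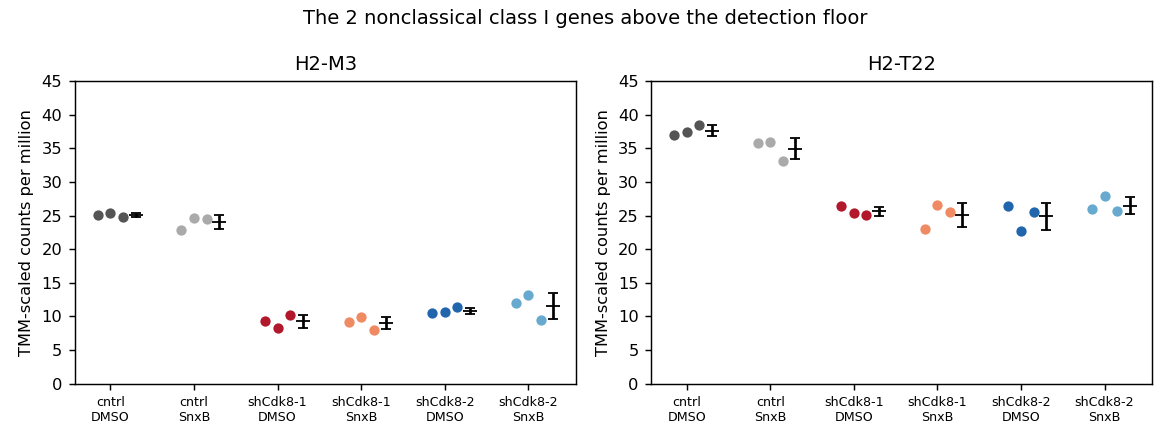
Level of H2-M3 (left) and H2-T22 (right) in TMM-scaled CPM in each of the 18 libraries, by group; points are libraries and the bars beside them show the mean ± SD of 3. H2-M3 lies at 22.8 to 25.4 CPM in the 6 cntrl libraries and at 8.04 to 13.3 CPM in the 12 shCdk8 libraries, and H2-T22 at 33.2 to 38.5 CPM and 22.7 to 27.9 CPM.

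Read against all genes tested, 1 of the 6 members (H2-M3) was called lower with shCdk8-1, where 7.32% of 12590 genes were called more than 2-fold lower, and the same 1 with shCdk8-2, where 6.08% were. By the adjusted p alone 2 of the 6 members fell with either hairpin, beside 30.6% of all genes with shCdk8-1 and 29.5% with shCdk8-2. Only H2-M3 and H2-T22 passed the filter on low counts, so the other 4 members had no test.

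Within a library, the ratio of H2-M3 to H2-T22 counts needs no scaling. It was 0.677, 0.681 and 0.645 in the cntrl libraries in DMSO. In shCdk8-1 cells it was 0.354, 0.327 and 0.405, and in shCdk8-2 cells 0.400, 0.471 and 0.445. Every shCdk8 library thus held less H2-M3 per H2-T22 read than every cntrl library in DMSO. A two-sided exact permutation test gave p = 0.1 for either hairpin, the smallest value that 3 libraries against 3 allow. In SnxB the mean ratio was 0.688 ± 0.0498 (SD, n = 3) in cntrl cells, 0.362 ± 0.0438 (SD, n = 3) in shCdk8-1 cells and 0.436 ± 0.0569 (SD, n = 3) in shCdk8-2 cells, with the same exact p of 0.1 for each hairpin. Between SnxB and DMSO in cntrl cells the ratios overlapped (exact permutation test, p = 0.6).

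**Figure D2:**
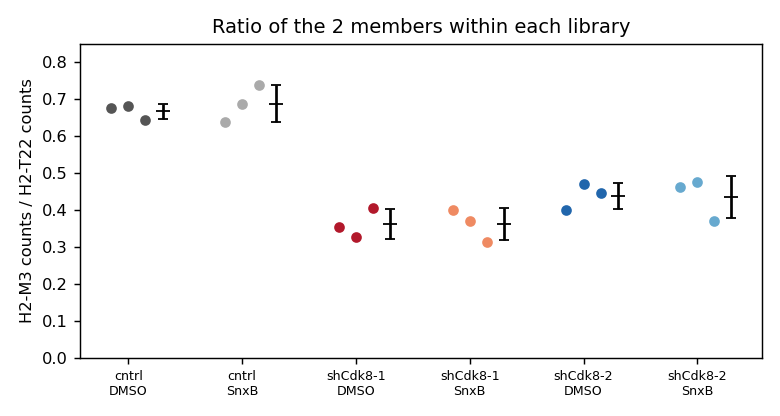
Ratio of H2-M3 to H2-T22 read counts in each library (vertical axis, no unit), by group; points are libraries and the bars show the mean ± SD of 3. The 6 cntrl libraries lie at 0.639 to 0.739 and the 12 shCdk8 libraries at 0.315 to 0.476.

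To compare levels between the genes, CPM were divided by exon length in kb. In cntrl cells in DMSO, H2-M3 was 17.5 ± 0.205 CPM per kb (SD, n = 3) and H2-T22 was 11.02 ± 0.229 CPM per kb (SD, n = 3). H2-D1 was 13.4-fold above H2-M3 and 21.2-fold above H2-T22 on this scale. In shCdk8-1 cells the order of the members was the other way round, with 6.45 ± 0.646 CPM per kb for H2-M3 and 7.51 ± 0.200 for H2-T22. In shCdk8-2 cells, 7.57 ± 0.312 CPM per kb for H2-M3 and 7.30 ± 0.582 for H2-T22 did not differ beyond their spread.

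These levels depend on how many reads could be assigned, since reads that map to several places were not counted. Of the 50-base windows of H2-M3 transcripts, 99.4% occurred in no other gene's transcripts in GENCODE M21. The share was 65.3% for H2-T22, which had 31.2% of its windows in common with its near copy H2-T10. It was 85.5% for H2-T23, 78.2% for H2-Q4, 65.0% for H2-Q6 and 73.5% for H2-Q7. Per kb of such windows, H2-M3 was 18.2 ± 0.214 CPM (SD, n = 3) and H2-T22 16.0 ± 0.332 CPM (SD, n = 3) in cntrl cells in DMSO, so the lead of H2-M3 shrank from 1.58-fold to 1.14-fold. In shCdk8-2 cells H2-T22 was then the higher, at 10.6 ± 0.845 against 7.88 ± 0.324 CPM per kb. Per kb of such windows in cntrl cells in DMSO, H2-D1 was 14.7-fold above H2-M3 and 16.7-fold above H2-T22. An antisense gene, A930015D03Rik, overlaps 1003 exonic bases of H2-T22. It lies on the opposite strand, and the counting used strand.

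H2-T23, H2-Q4, H2-Q6 and H2-Q7 were at or near 0 in every group. H2-T23 (ENSMUSG00000067212.8, minus strand, 36029773 to 36032855) had 4 counts over all 18 libraries, with 0 in 15 of them and at most 2 in 1. Its pooled level was 0.0117 CPM (exact 95% Poisson interval 0.00318 to 0.0299, which covers counting error only). H2-Q6 (ENSMUSG00000073409.12, plus strand, 35424850 to 35430055) had 2 counts in all. H2-Q7 (ENSMUSG00000060550.15, plus strand, 35439155 to 35443773) had 9, with at most 2 in a library. No library of these 3 genes exceeded the 3 counts taken as the limit of detection, which is 0.132 to 0.182 CPM, so no fold change is given for them.

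H2-Q4 (ENSMUSG00000035929.11, plus strand, 35379617 to 35385290) had 16 counts in all. In DMSO these were 0, 0 and 2 in cntrl cells, 0, 0 and 0 in shCdk8-1 cells and 0, 1 and 2 in shCdk8-2 cells. In SnxB they were 1, 5 and 1 in cntrl cells, 0, 0 and 0 in shCdk8-1 cells and 1, 3 and 0 in shCdk8-2 cells. The 6 shCdk8-1 libraries were thus all at 0 and 1 library, of cntrl cells in SnxB, exceeded 3 counts. The filter on low counts left H2-Q4 out of the test. In a fit with no such filter, shCdk8-1 cells in DMSO (adjusted p = 0.0401 in edgeR) and in SnxB (adjusted p = 0.046) passed against cntrl cells in SnxB, which rests on 0 against 7 counts, 5 of them in 1 library. Against cntrl cells in DMSO, H2-Q4 did not pass with either hairpin in that fit (adjusted p = 0.365 and 0.949).

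**Figure D3:**
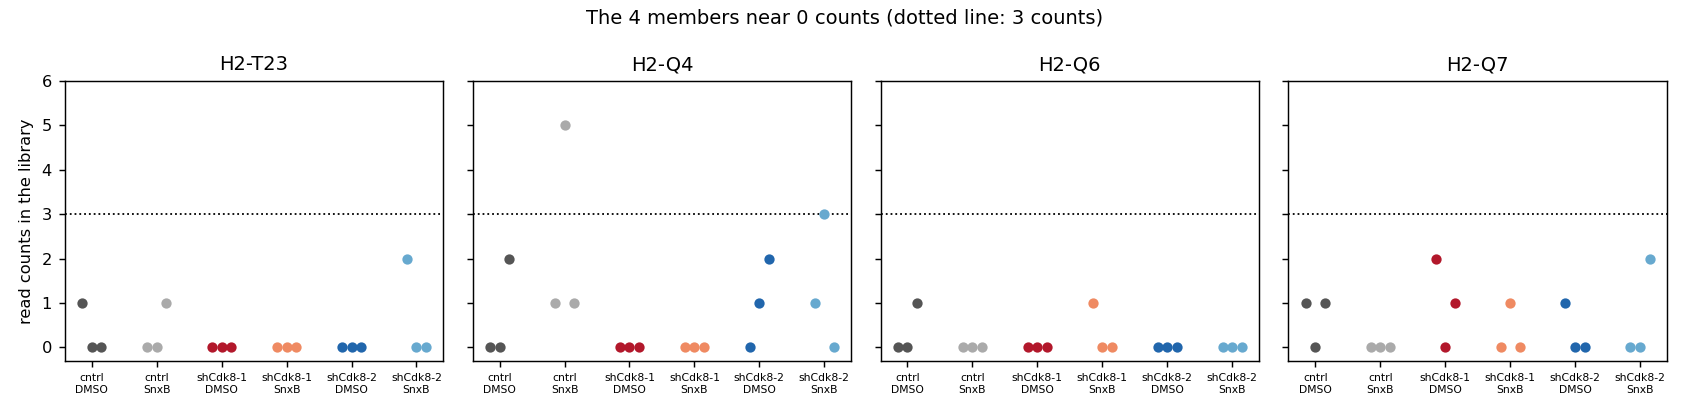
Read counts of H2-T23, H2-Q4, H2-Q6 and H2-Q7 in each of the 18 libraries, by group; each point is a library and the dotted line is at 3 counts. The points lie at 0 to 2 counts for H2-T23, H2-Q6 and H2-Q7, and at 0 to 5 for H2-Q4.

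The remaining nonclassical genes of the region were also low, H2-T10 and H2-T24 less so. Of 17 such genes in the list, 14 were matched to the count files, and only H2-T10 passed the filter. H2-T10, the near copy of H2-T22, had 4 to 14 counts per library, 138 in all against 9974 for H2-T22. Its log2 fold change against cntrl cells in DMSO was -0.44 with shCdk8-1 (standard error 0.408, adjusted p = 0.405 in edgeR) and -0.28 with shCdk8-2 (standard error 0.393, adjusted p = 0.598). Set against cntrl cells in SnxB, which differ in both hairpin and inhibitor, the DMSO lines were at -1.04 (adjusted p = 0.0223) and -0.88 (adjusted p = 0.0438). Of all genes, 60.1% and 57.7% passed in these comparisons. Within SnxB, H2-T10 was at -0.39 with shCdk8-1 and -0.87 with shCdk8-2 and passed with neither. H2-T24 had 0 to 6 counts, and none of the other 12 exceeded 3 counts in any library. Of 6 class I-like genes outside the complex, 4 were tested. In either direction 50% of them passed with shCdk8-1 beside 60.6% of all genes, and 25% with shCdk8-2 beside 58.2%. With shCdk8-1, Mr1 rose by 0.16 on the log2 scale (adjusted p = 0.00296) and Fcgrt fell by 0.21 (adjusted p = 0.0323), and with shCdk8-2 Hfe fell by 0.41 (adjusted p = 0.049).

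The second question of the design was whether blocking the kinase activity has the effect of knocking down CDK8. In cntrl cells in SnxB, H2-M3 had 418, 532 and 478 counts, or 22.8, 24.7 and 24.5 CPM. The log2 fold change against DMSO was -0.06 (95% interval -0.19 to 0.06, adjusted p = 0.681 in edgeR). Each SnxB library lay below each DMSO library, the nearest at 24.7 and 24.8 CPM. How many of all genes separate these groups in the same way was not counted.

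H2-T22 had 654, 775 and 647 counts in these libraries, or 35.8, 36.0 and 33.2 CPM. All 3 lay below the DMSO libraries, again with no count over all genes to set beside this. The log2 fold change was -0.11 (95% interval -0.22 to 0.01, adjusted p = 0.367 by the same test). With SnxB in cntrl cells, 0 of the 2 members tested passed, at an unadjusted p of 0.347 for H2-M3 and 0.0931 for H2-T22, where 5.53% of genes tested did. DESeq2 also called 0 members. The lower ends of both intervals lie nearer to 0 than the fold changes with either hairpin.

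Set directly against cntrl cells in SnxB, the shCdk8 lines in DMSO held less of both members. For H2-M3 the log2 fold change was -1.37 with shCdk8-1 (adjusted p = 1.33e-10) and -1.15 with shCdk8-2 (adjusted p = 1.11e-09), and for H2-T22 it was -0.45 (adjusted p = 9.01e-06) and -0.49 (adjusted p = 3.65e-06). H2-M3 was thus the 1 member called, beside 7.08% of genes called more than 2-fold lower for shCdk8-1 and 5.74% for shCdk8-2. Both members passed by the adjusted p alone, beside 30.7% and 29.4%.

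Within SnxB, both members were lower with either hairpin. These comparisons share the cntrl libraries in SnxB with those just given. H2-M3 had 172, 166 and 152 counts (9.25, 9.87 and 8.04 CPM) in shCdk8-1 cells and 243, 233 and 161 counts (11.97, 13.3 and 9.51 CPM) in shCdk8-2 cells. All 6 libraries lay below the 3 of cntrl cells in SnxB, and the library labelled replicate 3 of shCdk8-2 was the lowest of its group. Against cntrl cells in SnxB the log2 fold change of H2-M3 was -1.41 with shCdk8-1 (standard error 0.0966, adjusted p = 1.04e-10 in edgeR) and -1.05 with shCdk8-2 (standard error 0.0930, adjusted p = 7.21e-09). The latter is just past the 2-fold threshold. It fell short of it without replicate 3 of shCdk8-2 in SnxB, at -0.92, and with library totals in place of TMM scaling, at -0.99.

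H2-T22 had 429, 447 and 483 counts (23.1, 26.6 and 25.6 CPM) in shCdk8-1 cells in SnxB and 526, 490 and 434 counts (25.9, 27.9 and 25.6 CPM) in shCdk8-2 cells. Its log2 fold change against cntrl cells in SnxB was -0.48 with shCdk8-1 (adjusted p = 1.72e-06) and -0.40 with shCdk8-2 (adjusted p = 1.82e-05). As in DMSO, 1 of the 6 members was called, beside 7.06% of 12772 genes called more than 2-fold lower for shCdk8-1 and 5.75% for shCdk8-2. Both expressed members passed by the adjusted p alone, beside 30.1% and 28.6%.

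In the knockdown lines, SnxB moved neither member past the test. The log2 fold change of SnxB against DMSO in shCdk8-1 cells was -0.04 for H2-M3 (95% interval -0.25 to 0.17) and -0.03 for H2-T22 (-0.16 to 0.09). In shCdk8-2 cells it was 0.10 for H2-M3 (-0.10 to 0.29) and 0.09 for H2-T22 (-0.04 to 0.21). Of the members, 0 passed edgeR's quasi-likelihood test or DESeq2 in either line, beside 1.48% and 2.05% of genes, and the lowest unadjusted p among them was 0.199.

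The interaction of SnxB and hairpin, which tests whether the effect of the hairpin differs between SnxB and DMSO, was 0.02 on the log2 scale for H2-M3 and 0.07 for H2-T22 with shCdk8-1. With shCdk8-2 it was 0.16 for H2-M3 (95% interval -0.10 to 0.42) and 0.19 for H2-T22 (95% interval 0.02 to 0.37, unadjusted p = 0.0434, adjusted p = 0.841). None of the members passed by edgeR or by DESeq2, where 0.305% of genes did for shCdk8-1 and 0.0548% for shCdk8-2. Among these 4 tests, 1 had an unadjusted p under 0.05. Between the shCdk8 lines in DMSO 0 of the members passed in edgeR or DESeq2, with H2-M3 at an unadjusted p of 0.0146, beside 22% of all genes in either direction.

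**Figure D4:**
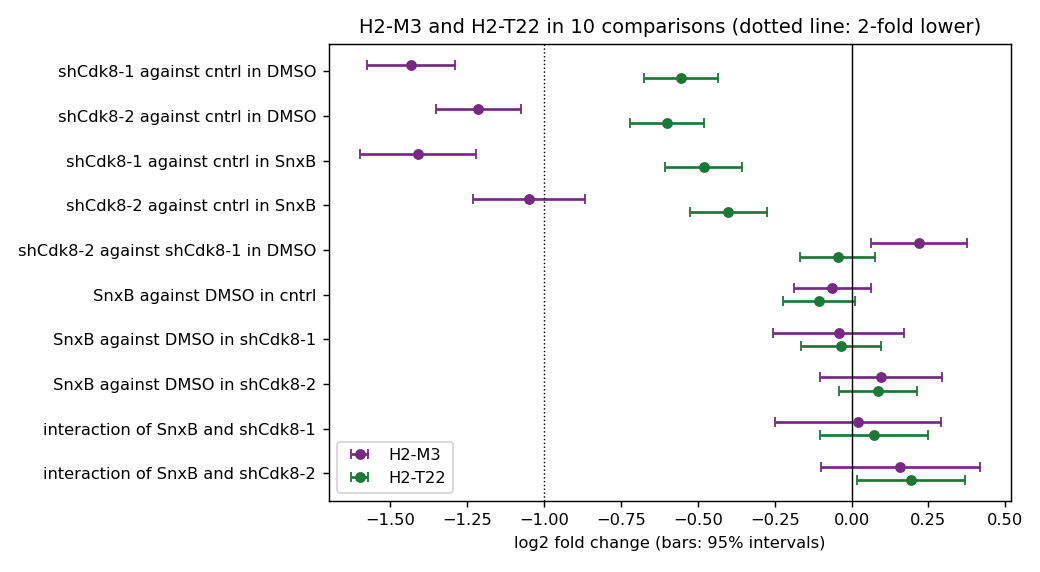
Log2 fold change of H2-M3 and H2-T22 (horizontal axis) in 10 comparisons from edgeR; points are estimates and bars are 95% intervals, and the dotted line marks a 2-fold lower level. H2-M3 lies at -1.43 to -1.05 in the 4 comparisons of a hairpin with cntrl and H2-T22 at -0.60 to -0.40, while both lie near 0 in the comparisons of SnxB with DMSO.

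Class I molecules depend on partner genes, which were followed by list. With shCdk8-1 in DMSO all 3 genes of the classical list fell, with log2 fold changes of -0.86 for H2-K1, -1.26 for H2-D1 and -1.04 for the light chain B2m. With shCdk8-2 they were -1.49, -1.02 and -0.87. H2-M3, at -1.43 and -1.21, lay beyond both with shCdk8-1 and between them with shCdk8-2, while H2-T22, at -0.56 and -0.60, lay nearer to 0 than either. These differences between genes were not tested. The median log2 fold change of the 3 genes was -1.04 with shCdk8-1 and -1.02 with shCdk8-2, beside 0.00 over all genes tested.

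The counts by list are to be read beside all genes tested, of which 30.6% fell and 30% rose with shCdk8-1, and 29.5% fell and 28.7% rose with shCdk8-2. Of the 8 genes that load peptides onto class I molecules, 6 fell and 2 rose with shCdk8-1, and 4 fell and 2 rose with shCdk8-2, with medians of -0.19 and -0.13. Tap1 and Tap2, the subunits of the peptide transporter, fell most, by 0.88 and 0.44 on the log2 scale with shCdk8-1 and by 0.91 and 0.38 with shCdk8-2. Tapbp (tapasin), which holds class I molecules at that transporter, rose by 0.15 (adjusted p = 0.0149) and 0.25 (adjusted p = 0.000485). Tapbpl, a peptide editor related to tapasin, rose by 0.61 (adjusted p = 8.79e-05) and 0.28 (adjusted p = 0.0315). Of 5 immunoproteasome genes, 3 fell with shCdk8-1, while 2 fell and 1 rose with shCdk8-2. The catalytic subunit Psmb9 changed most, with log2 fold changes of -2.81 (standard error 0.159) and -1.98 (standard error 0.139).

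Among the 11 class I regulators tested of 12 listed, 6 fell and 3 rose with shCdk8-1, and 5 fell and 2 rose with shCdk8-2. In either direction this is 81.8% of the 11 beside 60.6% of all genes with shCdk8-1, and 63.6% beside 58.2% with shCdk8-2. Nlrc5, the transactivator of class I genes, fell most, with log2 fold changes of -1.89 (standard error 0.0516, adjusted p = 3.89e-14 in edgeR) and -1.73 (standard error 0.0506, adjusted p = 1.68e-13). Nfkb1, which encodes the p50 subunit of NF-κB, fell by 0.86 and 0.74, and Rfxank, a part of the RFX complex, fell by 0.52 and 0.75. Rfxap, another part of that complex, rose by 0.74 and 0.52. Irf9, the DNA-binding subunit of the factor that interferon activates, rose by 0.58 and 0.65. Irf1 fell by 0.21 with shCdk8-1 (adjusted p = 0.0367) and was at 0.04 with shCdk8-2 (adjusted p = 0.727). With SnxB in cntrl cells, 0 of the genes of these 4 lists passed the test, and the log2 fold change of Nlrc5 was -0.02 (adjusted p = 0.851).

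**Figure D5:**
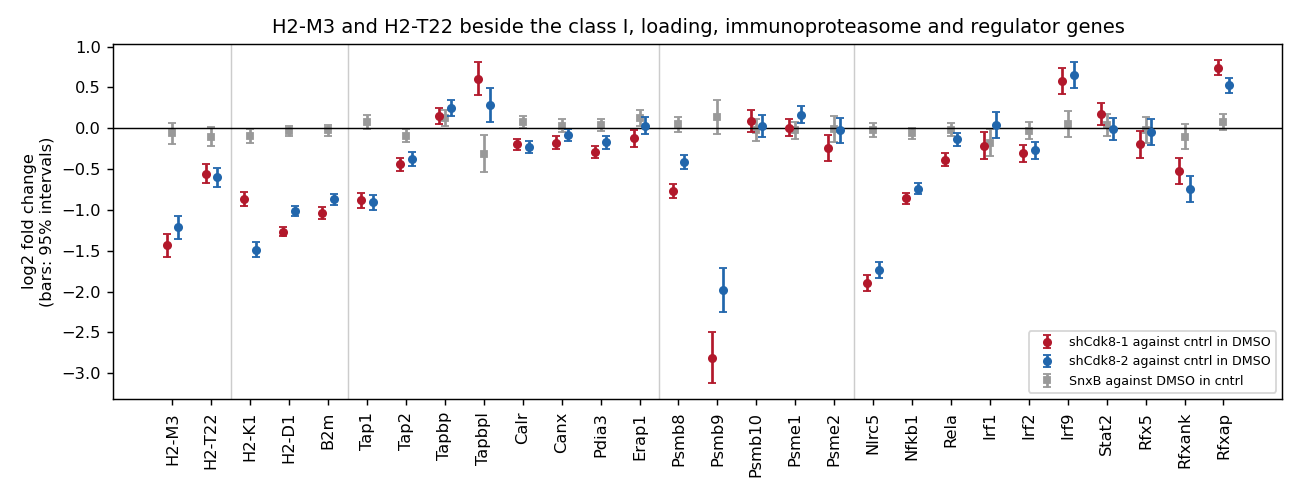
Log2 fold change (vertical axis) of H2-M3, H2-T22 and genes tested from the lists of classical class I, peptide loading, immunoproteasome and class I regulator genes, separated by grey lines; red and blue points are the hairpins against cntrl in DMSO, grey squares are SnxB against DMSO in cntrl cells, and bars are 95% intervals. The lowest points are Psmb9 at -2.81 and Nlrc5 at -1.89 with shCdk8-1.

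Along the chromosome, the genes around the members were counted by direction. Between H2-K1 and H2-M3 (33996017 to 37274484) the count files list 299 genes, of which 87 were tested. Without the class I genes, 82 remained, of which 26 fell and 21 rose with shCdk8-1, and 22 fell and 24 rose with shCdk8-2. These are 31.7% lower and 25.6% higher with shCdk8-1, and 26.8% lower and 29.3% higher with shCdk8-2, near the shares over all genes given above. Their median log2 fold change was -0.01 and 0.07.

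The genes whose level followed that of H2-M3 most closely over the 18 libraries were Gypc (Pearson r = 0.987), Hyls1 (r = 0.986) and Kctd17 (r = 0.985). For H2-T22 they were Ckap2 (r = 0.982), Lipo3 (r = 0.978) and Akr1b8 (r = 0.975). These were the highest of 9640 genes, and the libraries fall into cntrl and shCdk8 levels, so that a gene lowered by both hairpins scores high. No function is read from this likeness.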

How the data were processed

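Single-end reads from 18 libraries were trimmed with Trimmomatic, mapped with STAR to GENCODE M13 on GRCm38 and assigned to exons by strand with featureCounts 1.5.1. The authors deposited these raw counts, unscaled and 1 library to a file, and reads that mapped to several places or to several genes were left out. Symbols came from GENCODE M21, which named 50376 of the genes.

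Counts were analysed with edgeR 4.0.16 in R 4.3.3: filterByExpr (minimum count 10, minimum total 15), TMM, glmQLFit and glmQLFTest, with Benjamini-Hochberg adjustment over all genes tested. The fit of 12 libraries (12590 genes) held both cntrl groups and the knockdown groups in DMSO, and the fit of all 18 (12772 genes) served the other comparisons. CPM are TMM-scaled over the 18 libraries. The code was tested on simulated counts: for shCdk8-1 against cntrl in DMSO, 200 of 200 changed genes among 12433 were recovered with 1 false call, and for the interaction with shCdk8-1 199 of 200 among 12599 with 2 false calls.

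Likeness is Pearson's r of log2(CPM + 0.5) over the 18 libraries among genes averaging 5 CPM or more. Windows of 50 bases were compared among GENCODE M21 transcripts rather than along the genome, as no genome sequence was used. The rule for named genes took the 6 members, Cdk8 and Cdk19, the list genes that passed the test or partner a member, and these 3 most alike genes per expressed member. The members and lists were chosen with earlier results of these data known. DESeq2 1.42.0, other scalings, filters, thresholds and sets of libraries and each library left out in turn were the alternatives. Library labels do not say that replicates came from separate cultures, so p-values measure the spread between these libraries, which may be technical. The values of 1 listed regulator are not reported here.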

Additional observations from a re-analysis of the deposited data

How the results depend on the processing

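With no fold change threshold, 2 members instead of 1 were counted for both hairpins against cntrl in DMSO, against cntrl in SnxB within SnxB, and for both shCdk8 lines in DMSO against cntrl in SnxB, the second being H2-T22. With library totals in place of TMM, 0 members were called for shCdk8-2 against cntrl in SnxB, since H2-M3 fell under the 2-fold threshold. With no filter on low counts, 2 were called for shCdk8-1 in DMSO against cntrl in SnxB and for shCdk8-1 against cntrl in SnxB. The second was H2-Q4 (adjusted p = 0.0401 and 0.046), from 7 counts in cntrl against 0. With 1 library left out at a time, the count was 1 in every fit for 5 of the 6 comparisons of a hairpin with cntrl and 0 to 1 for shCdk8-2 against cntrl in SnxB. In these fits H2-M3 stayed between -1.504 and -1.37 on the log2 scale with shCdk8-1 in DMSO and between -1.24 and -1.18 with shCdk8-2, and H2-T22 between -0.57 and -0.53 and between -0.64 and -0.54. Changes of sign occurred only for values near 0 that passed no test. The interaction of SnxB and shCdk8-1 for H2-M3 was -0.0053 with no filter and -0.0475 to 0.0990 with a library left out. SnxB in shCdk8-1 cells ranged from -0.109 to 0.0370 for H2-M3 and from -0.0766 to 0.0248 for H2-T22, and shCdk8-2 against shCdk8-1 in DMSO from -0.0899 to 0.0193 for H2-T22.

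Replicate numbers are shared between groups. They are those of the labels; the count file headers of both shCdk8-2 groups carry the numbers 2, 3 and 3 for the libraries labelled 1, 2 and 3, so that the check and the block rest on the labels there. Same-numbered libraries did not deviate together, with mean correlations across genes of -0.129 to 0.185 between groups and no pair of groups over 0.1 for all 3 numbers, so the numbers were not taken to pair the libraries. With the replicate number as a replicate block, 1 member was called in each comparison of a hairpin with cntrl and 0 in the others, as without it. A member under 3 counts, or 0.132 to 0.182 CPM, is not detectable at this depth.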
